A study of Mus musculus with 6 samples.

Results

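The genes of the T-cell receptor complex, its co-receptors and the kinases that act first on it were examined in RNA-sequencing data of tumor endothelial cells (ECs). The 10 genes, Cd3d, Cd3e, Cd3g, Cd247, Cd4, Cd8a, Cd8b1, Lck, Zap70 and Cd2, were chosen by name for their role in the receptor, with earlier results of these data known, and all 10 were found among the 24346 gene symbols of the deposited tables. The ECs came from subcutaneous tumors of MC38, a murine colon carcinoma cell line, grown in C57BL/6 wild-type (WT) mice and in Apelin-knockout (Apelin-KO) mice on the same background, which lack Apelin in every cell rather than in ECs alone. There were 3 WT and 3 Apelin-KO samples, and both groups are named with saline in their titles and hold no other agent. The labels give neither the age of the mice nor the mouse behind each sample, so that the p-values measure the spread between these samples. Tumor cells were dissociated and the CD31-positive, CD45-negative fraction was sorted. The gate was set against leukocytes, since CD45 (encoded by Ptprc) is carried by all of them, T cells included. Values are FPKM (fragments per kilobase, relative to all reads that were mapped), which are scaled by gene length and can be compared between genes as well as between samples.

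T cells recognise antigen through a receptor whose variable chains carry no signal of their own. The signal is passed by the CD3 gamma, delta and epsilon chains and by the zeta chain, the product of Cd247. CD4 or CD8 binds the presenting MHC molecule and brings in the kinase Lck, which phosphorylates the CD3 and zeta chains, and the kinase Zap70 then docks on them and passes the signal on. CD2 is an adhesion molecule of T cells and natural killer (NK) cells. CD3 chains define T cells, whereas Cd247, Lck, Zap70 and Cd2 are also used by NK cells, and CD4 and CD8 alpha also occur on some myeloid cells. In tumors, T cells leave the blood through the endothelium, and the study asked how loss of Apelin in the host changes the tumor vessels and the T cells that enter through them. Here the question is how much RNA of the receptor genes the sorted ECs held, and whether it differed between the genotypes.

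The receptor genes fell into a group of 3 with a mean of 1 FPKM or more and a group of 7 that were barely seen. Lck was the most abundant, with 8.49 ± 0.491 FPKM in WT and 7.55 ± 0.162 FPKM in Apelin-KO ECs (SD, n = 3 each). Cd247 followed at 2.94 ± 0.863 and 2.71 ± 0.595 FPKM (SD, n = 3 each), and Zap70 at 0.984 ± 0.262 and 1.44 ± 0.763 FPKM (SD, n = 3 each). Cd3d, Cd3e, Cd3g, Cd4, Cd8a, Cd8b1 and Cd2 had means over all 6 samples between 0.09 and 0.276 FPKM, and none of them rose above 0.542 FPKM in any sample. The genes that define T cells were thus near 0 in the ECs of both genotypes. Lck, Cd247 and Zap70, the 3 that could be tested among genes with a mean of 1 FPKM or more, did not pass an adjusted p-value under 0.05 between WT and Apelin-KO ECs (limma), a threshold passed by 0.00912% of the genes tested, namely by Apln alone. Zap70, with a mean of 0.984 FPKM in WT, passed the filter on the mean only through its Apelin-KO values. In a fit without that filter, which held all 10 genes, none of the 10 passed, and 2 of 16341 genes did.

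Promoters were read to show the start sites of Lck and Cd247, which were readily measured in these ECs, beside those of Cd3e and Cd3d, which were barely seen. RefSeq promoters (build GRCm38.p6, 250 bases before to 50 after the start) were matched for 7 of the 10 genes, with 10 promoters in all; Cd4, Cd8b1 and Cd2 were not matched. Lck has a proximal promoter next to its coding exons and a distal one further upstream, and both are shown with those of Cd247 and of Cd3e and Cd3d. Capitals mark GGAA or its reverse complement TTCC, the core bound by ETS factors, a family used in T cells and in ECs.
Lck proximal, chr4:129558323-129558622, minus strand: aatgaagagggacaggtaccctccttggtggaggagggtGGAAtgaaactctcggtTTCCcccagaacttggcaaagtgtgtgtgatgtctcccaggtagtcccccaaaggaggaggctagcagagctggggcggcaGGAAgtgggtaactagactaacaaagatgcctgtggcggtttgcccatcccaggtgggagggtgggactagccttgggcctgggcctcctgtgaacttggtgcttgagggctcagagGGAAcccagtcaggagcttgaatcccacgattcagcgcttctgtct
Lck distal, chr4:129573592-129573891, minus strand: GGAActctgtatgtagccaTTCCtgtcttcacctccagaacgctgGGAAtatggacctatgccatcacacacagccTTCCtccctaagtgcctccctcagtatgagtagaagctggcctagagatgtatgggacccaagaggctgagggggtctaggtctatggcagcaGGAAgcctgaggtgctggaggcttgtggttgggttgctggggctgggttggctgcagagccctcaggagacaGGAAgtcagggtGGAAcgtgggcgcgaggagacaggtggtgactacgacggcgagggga
Cd247, chr1:165788431-165788730, plus strand: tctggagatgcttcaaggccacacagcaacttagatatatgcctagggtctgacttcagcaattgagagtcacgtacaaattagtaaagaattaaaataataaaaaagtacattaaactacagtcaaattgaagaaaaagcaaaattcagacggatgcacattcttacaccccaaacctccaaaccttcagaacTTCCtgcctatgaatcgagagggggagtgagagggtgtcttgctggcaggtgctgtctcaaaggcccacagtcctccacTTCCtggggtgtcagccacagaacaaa
Cd3e, chr9:45009562-45009861, minus strand: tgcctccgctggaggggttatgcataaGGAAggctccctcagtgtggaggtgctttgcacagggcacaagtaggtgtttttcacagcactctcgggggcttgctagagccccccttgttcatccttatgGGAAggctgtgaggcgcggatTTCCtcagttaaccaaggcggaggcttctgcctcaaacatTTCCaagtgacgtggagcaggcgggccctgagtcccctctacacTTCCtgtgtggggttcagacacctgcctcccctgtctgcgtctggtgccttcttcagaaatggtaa
Cd3d, chr9:44981536-44981835, plus strand: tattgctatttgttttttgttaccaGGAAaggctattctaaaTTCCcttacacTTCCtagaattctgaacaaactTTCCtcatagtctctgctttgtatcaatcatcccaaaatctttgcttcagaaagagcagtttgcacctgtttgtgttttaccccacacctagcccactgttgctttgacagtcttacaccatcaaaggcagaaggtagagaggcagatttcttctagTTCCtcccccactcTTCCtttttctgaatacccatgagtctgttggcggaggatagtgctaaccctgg

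The core GGAA, searched on both strands, was found 4 times in the proximal and 7 times in the distal promoter of Lck. It was found 2 times in that of Cd247, 5 times in that of Cd3e and 6 times in that of Cd3d. It is common, since 95.98% of 32851 promoters of the same length held it, with a median of 3 matches, so it does not set these promoters apart from others. The RUNX motif TGTGGT was found once in the distal promoter of Lck and not in the other 4 shown, and 16.76% of all promoters held it. The motif of GATA factors, AGATAA, was in none of the 5 shown, and 11.18% of all promoters held it. TATAAA was in none of the 10 promoters, and 13.62% of all promoters held it. Each motif was searched on both strands, and a match is a description of letters only. The FPKM are values of whole genes and do not tell the transcripts of the proximal Lck promoter from those of the distal one.

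The CD3 chains lie together on chromosome 9 of GRCm38. Cd3g (chr9:44969572-44980431, minus strand, 7 exons) and Cd3d (chr9:44981786-44987339, plus strand, 5 exons) start away from each other, 1354 bases apart, and Cd3e (chr9:44998740-45009627, minus strand, 8 exons) lies 11400 bases further on. Cd3d was measured at 0.262, 0.098 and 0 FPKM in WT 1, 2 and 3, while Apelin-KO 1, 2 and 3 held 0, 0.086 and 0.094 FPKM. WT 1 was the highest, 1 sample of each genotype was listed at 0, and the groups overlapped. Cd3e was measured at 0.239, 0.180 and 0.088 FPKM in WT and at 0.086, 0.237 and 0.171 FPKM in Apelin-KO ECs, in the same order of samples as all values below. It was the only CD3 chain above 0 in every sample, and its group means, 0.169 and 0.165 FPKM, were nearly equal. Cd3g was measured at 0.240, 0.542 and 0.399 FPKM in WT ECs and at 0, 0.475 and 0 FPKM in Apelin-KO ECs. All WT samples held Cd3g and only Apelin-KO 2 among the knockouts did, at a value within the range of WT.

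These values rest on single reads. In genes this low the FPKM of a sample moves in steps of what 1 read is worth, and the steps gave back whole reads for all 7 low genes to within 0.014 of a read. Cd3d was 3, 1 and 0 reads in WT and 0, 1 and 1 reads in Apelin-KO ECs. Cd3e was 3, 2 and 1 reads against 1, 3 and 2 reads, and Cd3g was 2, 4 and 3 reads against 0, 4 and 0 reads. The 3 CD3 chains together held 31 reads, 19 of them in WT (exact 95% Poisson interval 11.4 to 29.7) and 12 in Apelin-KO ECs (6.2 to 21), of an estimated 8990000 to 10250000 reads per sample. The intervals cover counting error only, and they overlap. A gene with 0 reads in a sample may still have been present at up to 3.69 reads by the same interval.

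**Figure D1:**
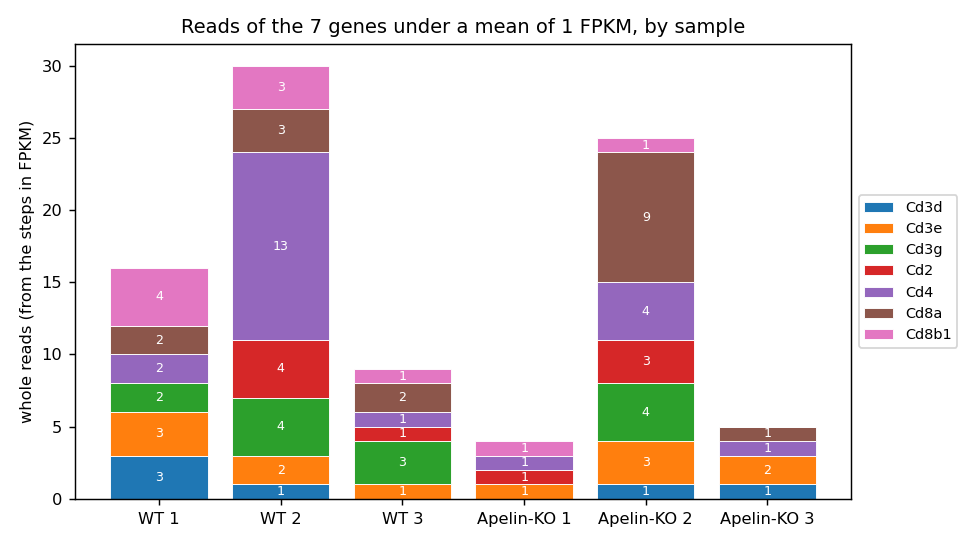
Whole reads (vertical axis) of the 7 receptor genes under a mean of 1 FPKM, stacked by gene for each of the 3 WT and 3 Apelin-KO samples; the number in each block is that gene's reads. WT 2 and Apelin-KO 2 hold the most, 30 and 25 reads, and Apelin-KO 1 and 3 the fewest, 4 and 5 reads.

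The co-receptors were equally scarce. Cd4 (chr6:124864692-124888221, minus strand, 10 exons), the co-receptor of helper and regulatory T cells, was measured at 0.068, 0.497 and 0.038 FPKM in WT and at 0.037, 0.134 and 0.036 FPKM in Apelin-KO ECs. Sample 2 of each genotype stood above the others, with 13 reads in WT 2 and 4 reads in Apelin-KO 2, while the other samples held 1 or 2 reads. Without WT 2 the remaining WT samples lay within the range of Apelin-KO. Cd8a (chr6:71373427-71379173, plus strand, 5 exons), the alpha chain of the co-receptor of cytotoxic T cells, was measured at 0.068, 0.114 and 0.075 FPKM in WT and at 0, 0.301 and 0.036 FPKM in Apelin-KO ECs. Apelin-KO 2 was the highest with 9 of the 17 Cd8a reads of all samples, and the groups overlapped.

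Cd8b1 (chr6:71322788-71337494, plus strand, 6 exons), the beta chain found on conventional cytotoxic T cells, lies 35932 bases from Cd8a. It was measured at 0.324, 0.274 and 0.090 FPKM in WT and at 0.088, 0.080 and 0 FPKM in Apelin-KO ECs. Every WT value lay above every Apelin-KO value, but WT 3, Apelin-KO 1 and Apelin-KO 2 held 1 read each and differed only through the number of reads that each library was scaled to. In all, 8 reads came from WT and 2 from Apelin-KO ECs. Of the 5377 genes above 0 but under 1 FPKM, 6.71% had WT wholly above Apelin-KO, and Cd8b1 was the 1 such gene among the 7 low receptor genes. With no filter on low genes, it had a log2 fold change of 0.22, a standard error of 0.10 and an adjusted p of 0.580 (limma).

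Cd2 (chr3:101275899-101287939, minus strand, 5 exons) was measured at 0, 0.472 and 0.116 FPKM in WT and at 0.113, 0.310 and 0 FPKM in Apelin-KO ECs. It was 0, 4 and 1 reads against 1, 3 and 0 reads, again with the most in sample 2 of each genotype, and the groups overlapped. Without the filter, the other low genes had adjusted p-values between 0.679 for Cd3g and 0.997 for Cd3e (limma, 16341 genes), so that no difference was called.

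**Figure D2:**
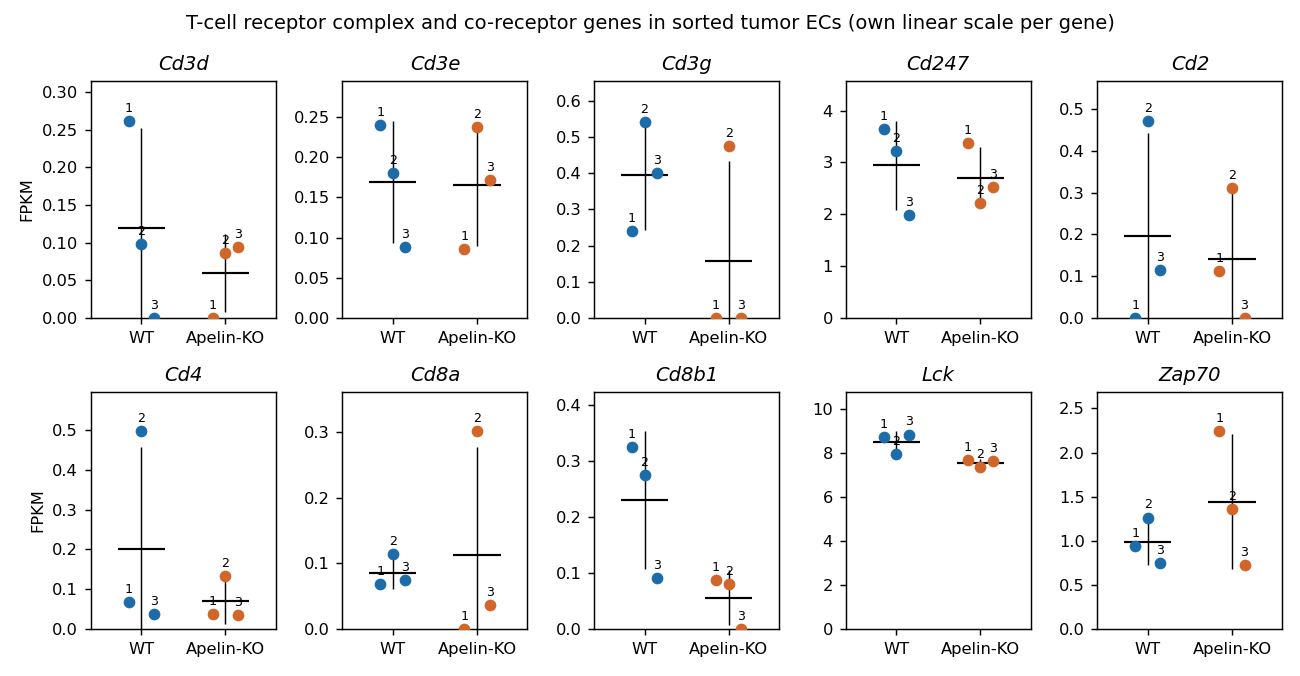
FPKM (vertical axes, one linear scale per gene, starting at 0) of the 10 receptor genes in WT and Apelin-KO ECs; points are samples with their replicate number, horizontal bars the means and vertical lines 1 SD. Lck lies between 7.37 and 8.83 FPKM in every sample, whereas the CD3 chains, co-receptors and Cd2 do not pass 0.542 FPKM.

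The kinases and the zeta chain were measured well enough to be compared. Lck (chr4:129548344-129573641, minus strand, 12 exons), the kinase that starts the receptor signal, was measured at 8.71, 7.93 and 8.83 FPKM in WT and at 7.68, 7.37 and 7.61 FPKM in Apelin-KO ECs. All WT samples lay above all Apelin-KO samples, by a small margin between WT 2 and Apelin-KO 1. The log2 fold change of FPKM + 1, WT minus Apelin-KO, was 0.15, with a standard error of 0.09, a 95% interval of -0.07 to 0.37 and an adjusted p of 0.644 (limma, Benjamini-Hochberg). Among the 10964 genes tested, 6.61% likewise had every WT sample above every Apelin-KO sample, and Lck was 1 of the 3 receptor genes tested. On this scale log2 fold changes understate the change of low genes. The value corresponds to an estimated 141 to 175 reads in WT and 143 to 150 reads in Apelin-KO ECs, taken over the longest coding transcript. Lck ranked above 72.9% of all genes in the table.

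Cd247 (chr1:165788681-165877277, plus strand, 9 exons), the zeta chain, was measured at 3.64, 3.21 and 1.98 FPKM in WT and at 3.37, 2.23 and 2.53 FPKM in Apelin-KO ECs. WT 1 and Apelin-KO 1 were the highest of their groups, WT 3 was the lowest of all, and the groups overlapped. Its log2 fold change, 0.08 with a 95% interval of -0.39 to 0.54, had a standard error of 0.20 (adjusted p = 0.924, limma). Its direction turned without WT 1 (-0.05) and without Apelin-KO 2 (-0.02). Cd247 shares 12124 bases with Pou2f1 on the opposite strand, and since the strand setting of the counting is not stated, reads of the pair may not have been told apart. Pou2f1, named after its values were seen, lay between 0.530 and 0.791 FPKM.

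Zap70 (chr1:36761798-36782818, plus strand, 13 exons) was measured at 0.945, 1.26 and 0.744 FPKM in WT and at 2.24, 1.36 and 0.722 FPKM in Apelin-KO ECs. Apelin-KO 1 stood above the other samples and Apelin-KO 3 was the lowest, so that the knockouts spanned the whole range. Its log2 fold change, -0.26 with a 95% interval of -0.81 to 0.29, had a standard error of 0.23 (adjusted p = 0.748, limma). It was -0.03 without Apelin-KO 1 and -0.49 without Apelin-KO 3 (unadjusted p = 0.0389). With 3 against 3 samples an exact permutation test cannot give a p-value below 0.1.

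In the order of levels, every Lck value lay above every Cd247 value. The ranges of Cd247 and Zap70 overlapped between samples, but Cd247 was the higher of the pair within each of the 6 samples. Every Zap70 value lay above every value of the 7 low genes, and the 7 low genes overlapped each other. No receptor gene passed an unadjusted p-value under 0.05, which 9.42% of the genes tested passed. The median log2 fold change of the 3 tested receptor genes was 0.08, beside -0.01 over all genes tested, and 2 of the 3 were higher in WT ECs.

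**Figure D3:**
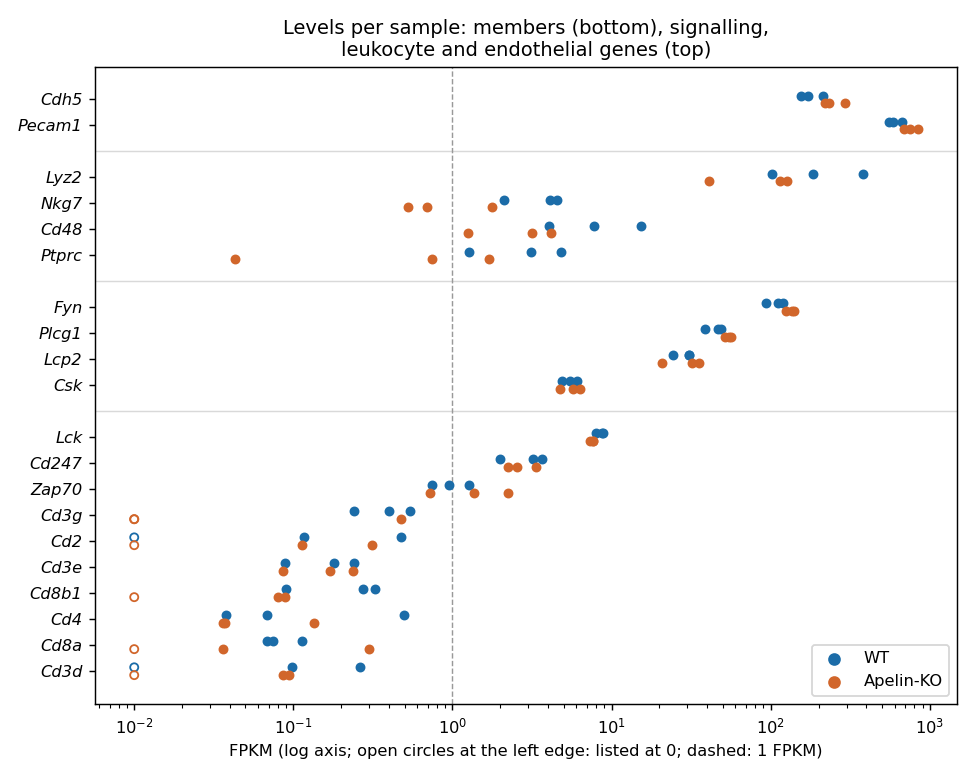
FPKM (horizontal log axis) of the receptor genes and of signalling, leukocyte and endothelial genes in each WT and Apelin-KO sample; open circles at the left edge are values listed at 0, and the dashed line marks 1 FPKM. Lck and Cd247 lie above 1 FPKM in all 6 samples, while the CD3 chains lie below it and the endothelial genes Cdh5 and Pecam1 lie far to the right, at 155 FPKM or more.

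Lck, Cd247 and Zap70 did not follow the CD3 chains from sample to sample. The FPKM of Cd3d, Cd3e and Cd3g summed to 0.741, 0.820 and 0.487 in WT and to 0.086, 0.798 and 0.265 in Apelin-KO ECs. Apelin-KO 1, with 1 CD3 read in all, had the lowest sum, yet it had the highest Zap70 and the second highest Cd247 of the 6 samples. The ratio of Lck to the CD3 sum was 11.7, 9.67 and 18.1 in WT and 89.3, 9.23 and 28.7 in Apelin-KO ECs. The ratio of Cd247 to the CD3 sum was 4.92, 3.92 and 4.07 in WT and 39.2, 2.79 and 9.54 in Apelin-KO ECs. Lck itself stayed between 7.37 and 8.83 FPKM, while the CD3 sum went from 0.086 to 0.820 FPKM. The CD3 sums of Apelin-KO 1 and 3 rest on 1 and 3 reads, so these ratios are imprecise. In such bulk samples fewer cells of a type and less RNA per cell cannot be told apart.

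Lck has a close neighbour that ECs express strongly. Fam167b (chr4:129576815-129578549, minus strand), named after its values were seen, ends 3173 bases upstream of Lck on the same strand. It was measured at 134, 142 and 182 FPKM in WT and at 179, 151 and 111 FPKM in Apelin-KO ECs (log2 fold change 0.07, adjusted p = 0.933, limma). WT 3 was the highest sample for both genes, while Apelin-KO 1 was the second highest for Fam167b and the fourth for Lck. Its part in the Lck values was not tested.

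The other genes of receptor signalling were read from a list of 25 adaptors, kinases, phosphatases and co-stimulators, of which 24 were in the table (Cd58 was not matched). Of these, 16 were under a mean of 1 FPKM, and Lat and Trat1 were listed at 0 in all 6 samples. Lat is the membrane adaptor that Zap70 phosphorylates in T cells. Lcp2, an adaptor that acts next to Lat, was nevertheless measured at 24.3, 30.8 and 30.7 FPKM in WT and at 20.8, 35.4 and 32.0 FPKM in Apelin-KO ECs (log2 fold change -0.02, adjusted p = 0.989, limma). Constant regions of the receptor chains, 7 genes, were not in the table under the symbols searched and were not analysed here.

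Of the 8 signalling genes tested, the unadjusted p-value was under 0.05 for 3 that were higher and 2 that were lower in WT, and the adjusted one for none. All genes tested gave 5.17% higher and 4.25% lower by the same rule. The median log2 fold change of the 8 genes was 0.39, beside -0.01 over all genes. It lay near no single gene, since 4 of the 8 were higher in WT, at 0.79 to 1.30. The others lay between -0.31 and -0.02. Fyn, a kinase of the same family as Lck that is active in many cell types, was measured at 111, 93.7 and 119 FPKM in WT and at 124, 137 and 140 FPKM in Apelin-KO ECs. Its groups did not overlap, and the log2 fold change was -0.31 (unadjusted p = 0.0372, adjusted p = 0.515, limma). Plcg1, a phospholipase of receptor signalling that also serves growth factor receptors in ECs, was measured at 48.4, 38.4 and 46.5 FPKM in WT and at 55.9, 51.5 and 54.4 FPKM in Apelin-KO ECs (log2 fold change -0.28, unadjusted p = 0.0488, adjusted p = 0.525, limma). Here too all WT samples lay below all Apelin-KO samples, as they did for 7.77% of all genes tested.

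The 3 genes higher in WT were Cd48, Ptprc and Prkcq. Cd48, the ligand of CD2 in the mouse, is carried by most leukocytes and was measured at 7.75, 15.2 and 4.06 FPKM in WT and at 1.25, 4.15 and 3.15 FPKM in Apelin-KO ECs (log2 fold change 1.30, unadjusted p = 0.0260, adjusted p = 0.509, limma). WT 2 was the highest, and WT 3 lay within the range of Apelin-KO. Prkcq, the protein kinase C theta of T cells, was measured at 7.12, 2.95 and 2.48 FPKM in WT and at 1.03, 2.37 and 1.93 FPKM in Apelin-KO ECs (log2 fold change 0.83, unadjusted p = 0.0464, adjusted p = 0.525, limma). WT 1 stood apart, and the groups did not overlap, as with WT wholly above Apelin-KO in 6.61% of all genes tested. Csk, which holds Lck inactive, lay between 4.77 and 6.31 FPKM, with a log2 fold change of -0.02 (adjusted p = 0.968, limma). The count of 5 genes at an unadjusted p-value under 0.05 fell to 0 when every gene kept its own variance and to 1 when WT 1, WT 2, Apelin-KO 1 or Apelin-KO 3 was left out. Over all genes the share that passed went from 9.42% to 7.14% with each gene's own variance, and to 6.19%, 4.91%, 8.95% and 6.81% without these samples in turn.

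**Figure D4:**
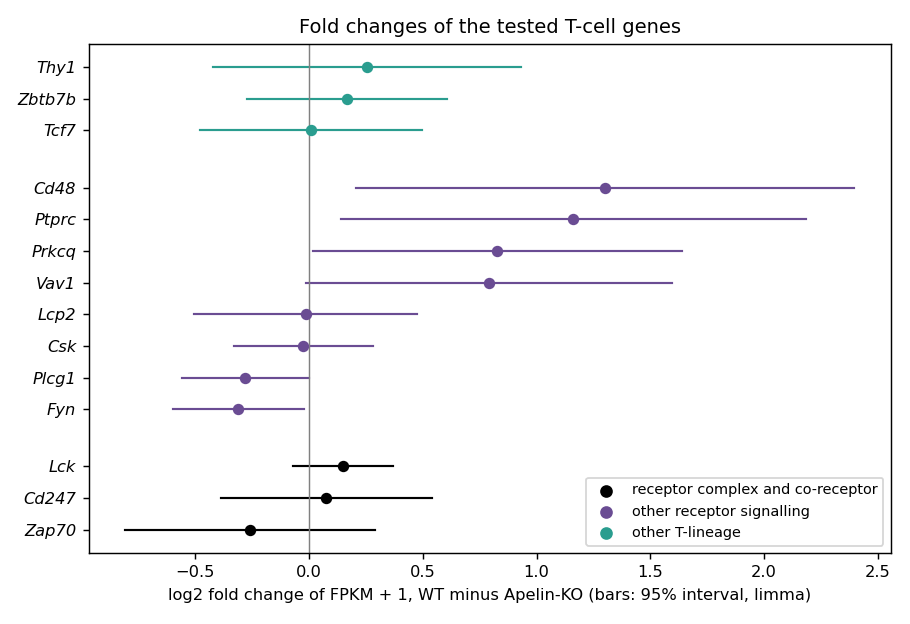
Log2 fold change of FPKM + 1, WT minus Apelin-KO (horizontal axis), with 95% intervals from limma, for the tested receptor genes (black), other signalling genes (purple) and other T-lineage genes (green). The intervals of Lck, Cd247 and Zap70 include 0, those of Cd48, Ptprc and Prkcq lie above 0, and those of Fyn and Plcg1 below 0, none at an adjusted p-value under 0.05.

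T-lineage genes outside the receptor were mostly low. Of 18 such genes, 15 were under a mean of 1 FPKM, and of the other 3 none passed an unadjusted p-value under 0.05. Tcf7, a transcription factor of naive and memory T cells, was measured at 5.69, 4.40 and 2.83 FPKM in WT and at 3.61, 4.58 and 4.30 FPKM in Apelin-KO ECs (log2 fold change 0.01, adjusted p = 0.994, limma). Thy1, which fibroblasts also carry, had a log2 fold change of 0.25 (adjusted p = 0.802), and Zbtb7b, a factor of CD4 lineage cells, one of 0.17 (adjusted p = 0.802). Bcl11b, a factor that T cells need for their identity, did not pass 0.078 FPKM, and Foxp3, the factor of regulatory T cells, did not pass 0.146 FPKM. Both were chosen for naming after their values were seen.

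Markers of other cells were read beside the receptor genes. Ptprc, whose protein the gate was set against, was measured at 3.13, 4.84 and 1.27 FPKM in WT and at 0.043, 1.70 and 0.740 FPKM in Apelin-KO ECs (log2 fold change 1.16, adjusted p = 0.513, limma). Of the 14 macrophage and monocyte markers, all were tested and higher in WT, and 8 had an unadjusted p-value under 0.05. By that rule 5.17% of all genes tested were higher in WT. The 14 markers had a median log2 fold change of 1.28, beside -0.01 over all genes tested. Their summed FPKM was 501, 896 and 233 in WT and 94.7, 283 and 262 in Apelin-KO ECs, led by Lyz2 with a mean of 158 FPKM. Of the 10 genes of all leukocytes, 4 were higher in WT by the same rule, with a median log2 fold change of 0.90. Among these 4, Ptprc and Rac2 passed the filter only through WT, with Apelin-KO means of 0.826 and 0.701 FPKM. The same holds for Fcgr1 and Mrc1 among the 8 macrophage and monocyte markers, whose Apelin-KO means were also under 1 FPKM. Lcp1, the most abundant gene of the leukocyte list, went the other way, with a mean of 119 FPKM and a log2 fold change of -0.18 (limma). All its WT samples lay below all its Apelin-KO samples. Ptprc and Pecam1, which encode the proteins used for the sort, are counted in their lists.

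NK cell markers, 8 genes, summed to 3.28 to 6.63 FPKM in WT and to 0.614 to 2.48 FPKM in Apelin-KO ECs, and Klra8 was at 0 in every sample. The 1 tested gene of that list was Nkg7, a granule protein of cytotoxic cells, at 2.103, 4.56 and 4.12 FPKM in WT and 0.526, 1.76 and 0.695 FPKM in Apelin-KO ECs (log2 fold change 1.21, unadjusted p = 0.00444, adjusted p = 0.501, limma). Its groups did not overlap, as with WT wholly above Apelin-KO in 6.61% of all genes tested. Its mean in Apelin-KO ECs was 0.994 FPKM, so it passed the filter through WT. Nkg7 was the largest part of the NK sum in every sample. The other 7 NK markers were each under a mean of 1 FPKM, and in none of them did the groups separate. Klri2 had its higher mean in Apelin-KO ECs. B cell markers, 8 genes, summed to 0.339 to 0.813 FPKM in WT and to 0 to 0.519 FPKM in Apelin-KO ECs, with Fcer2a at 0 in every sample and none tested. Of the 9 dendritic cell markers 2 were tested and none passed, and Siglech was at 0. They summed to 22.6 to 25.4 FPKM in WT and to 24.1 to 25.5 FPKM in Apelin-KO ECs, nearly all of it Zbtb46, which had a mean of 21.6 FPKM. Zbtb46 lay between 19.8 and 23.5 FPKM in every sample, whereas Ptprc ran from 0.043 to 4.84 FPKM. Of the 9 markers, 7 were under a mean of 1 FPKM. Which cells the Zbtb46 RNA came from was not tested. Neutrophil markers, 5 genes in the table, summed to at most 3.36 FPKM, with Cxcr2 at 0.

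The 15 endothelial markers all had means lower in WT, 5 of them with an unadjusted p-value under 0.05. By that rule 4.25% of all genes tested were lower in WT. The 15 markers had a median log2 fold change of -0.24, beside -0.01 over all genes tested. They summed to 4371 to 5214 FPKM in WT and to 5406 to 5693 FPKM in Apelin-KO ECs, far above every other list. Of the fibroblast markers 7 were tested and 4 were higher in WT by the same rule, of the pericyte markers 8 were tested and 1 was lower, and of the tumor cell markers only Krt20 was tested and it did not pass. Over all genes tested, 5.17% were higher and 4.25% lower in WT by this rule.

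The sum of the 7 low receptor genes, though not Lck, Cd247 or Zap70, was highest and lowest in the same samples as Ptprc and the macrophage sum. These 7 genes summed to 1.201, 2.18 and 0.806 FPKM in WT and to 0.324, 1.62 and 0.337 FPKM in Apelin-KO ECs, or 16, 30 and 9 reads against 4, 25 and 5 reads. WT together held 55 reads (exact 95% Poisson interval 41.4 to 71.6) and Apelin-KO 34 (23.5 to 47.5), and Apelin-KO 2 lay above WT 1 and WT 3. WT 2 was the highest and Apelin-KO 1 the lowest for this sum, for Ptprc and for the macrophage sum. Lck did not share that order, with WT 3 the highest and Apelin-KO 2 the lowest, and Apelin-KO 1 was the highest for Zap70 and the second highest for Cd247. The part of leukocytes that passed the gate in these values was not tested.

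**Figure D5:**
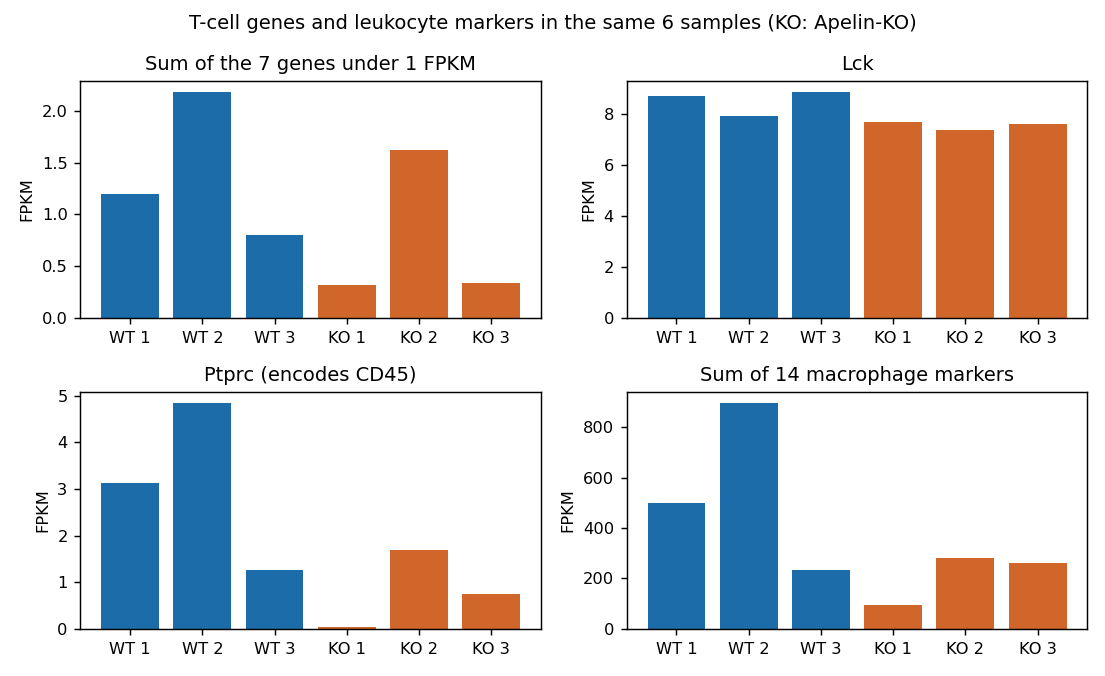
FPKM (vertical axes, each from 0) in each WT and Apelin-KO sample of the sum of the 7 low receptor genes, of Lck, of Ptprc and of the sum of 14 macrophage and monocyte markers. WT 2 is the highest bar and Apelin-KO 1 the lowest for the low receptor genes, Ptprc and the macrophage sum, while Lck is nearly level over the 6 samples.

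The labels were checked on the targeted gene. Apln was measured at 432, 435 and 504 FPKM in WT and at 9.96, 17.5 and 24.3 FPKM in Apelin-KO ECs, where its mean was 3.78% of that in WT (log2 fold change 4.73, adjusted p = 0.00747, limma). The log2 fold change of Apln was 4.76 without WT 2 and 4.78 without Apelin-KO 2, with adjusted p-values of 0.0770 and 0.108 (limma), so that its call was lost there and, with each gene's own variance, with an adjusted p of 0.497. Each sample listed 14089 to 14621 genes above 0, and no sample stood apart in depth.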

How the data were processed

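RNA-sequencing data of sorted MC38 tumor ECs, 3 WT and 3 Apelin-KO samples, were used. Stranded mRNA libraries were sequenced single-end by the authors and mapped to mm10 (GRCm38). The submitters' processing notes name bcl2fastq 2.17.1.14, TopHat2 2.1.1, Bowtie2 2.2.4, SAMtools 1.0 and Cufflinks 2.2.1. The deposited values are FPKM per gene symbol, computed by the authors, with 3 decimals; strand setting and annotation are not given in the sources used here.

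Genes that averaged 1 FPKM or more (10964 of 24346) were compared between WT and Apelin-KO as log2(FPKM + 1) in limma 3.58.1 (R 4.3.3), and differences are WT minus Apelin-KO. The moderated test was two-sided, without covariates, with Benjamini-Hochberg adjustment over all genes tested. The filter leaves out 7 of the 10 receptor genes, which are given as values, as reads and, without the filter, as an alternative.

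Depth was estimated, for 3742 genes with a single transcript of at least 700 bases, from the steps that 1 read makes in low FPKM, assuming 200-base fragments. Of the low values, 70.49% to 74% came within 0.1 of whole reads, against 20% by chance. Reads of the low genes come from such steps, and those of Lck, Cd247 and Zap70 from their longest coding transcript. No count test was run on them. Intervals of reads are exact 95% Poisson intervals.

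Positions are from GENCODE M21, promoters from RefSeq. Python 3.11.15 was used for the remainder. The genes and lists were chosen with earlier results of these data known. Named are all 10 genes in every sample, Apln, the 6 most abundant genes at or above 1 FPKM in each of the signalling and T-lineage lists, and of each marker list up to 3 leading genes and defining markers at 0; exceptions are stated. A further gene that this rule names is not reported here. Alternatives changed the pseudocount, filter, scaling, variance, block or samples.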

Additional observations from a re-analysis of the deposited data

How the results depend on the processing

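No receptor gene passed an adjusted p-value under 0.05 in any of the 16 fits (limma), a count of 0 throughout, although only the fit without the filter held all 10. At an unadjusted p-value under 0.05 it was 0 in the fit as reported and 1 with each gene's own variance (Lck, where 7.14% of all genes passed), and it ranged from 0 to 1 when single samples were left out (Zap70, without Apelin-KO 3, where 6.81% passed). Receptor genes whose groups did not overlap numbered 1, and 2 without the filter on low genes, and ranged from 1 to 2 with single samples left out. Over all genes in these fits, 14.4% did not overlap as reported, 12.6% without the filter and 20.1% to 30% with a sample left out (22.8% without Apelin-KO 3, where Zap70 was the second). The log2 fold change of Lck lay between 0.12 and 0.19 and that of Zap70 between -0.49 and -0.03, without a change of direction. That of Cd247 ranged from -0.0546 to 0.265 with single samples left out and turned to -0.0546 without WT 1 and -0.0192 without Apelin-KO 2. The cause was not tested.

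The 5 of 8 signalling genes at an unadjusted p-value under 0.05 became 2 with a pseudocount of 0.1 or 0.01 (8.75% and 8.54% of all genes passed), 3 of the 5 still tested with a filter at 5 FPKM (9.23%), 3 with samples scaled to the same sum (8.74%), 0 with each gene's own variance (7.14%), and 1 to 5 with single samples left out. Other T-lineage genes rose from 0 to 2 without the filter of the 18 listed (Il7r and Runx3, both higher in WT), where 1452 of all 16341 genes passed. With the replicate block the signalling count was 3 (8.14% of all genes passed). The sample titles give a number but do not say whether it marks a batch. Same-numbered samples had correlations of -0.139, 0.207 and -0.019. Pairs with different numbers ran from -0.195 (WT 3 and Apelin-KO 2) to 0.212 (WT 3 and Apelin-KO 1). So few values cannot settle whether the numbers mark a batch. The block changed no call of a receptor gene. Depth, at 0 to 13 reads per sample for each of the 7 low genes, limits what can be said of them. Filtering at 5 FPKM left only Lck of the receptor genes tested and no T-lineage gene.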
